A study of Homo sapiens with 6 samples.

Results

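The events described here are alternative 3ʹ splice sites that lie 4 to 50 nt apart, where the same upstream exon is joined to either of 2 nearby acceptor sites. They were taken from the list of alternative 3ʹ splice site (A3SS) events by 3 criteria, which were the distance between the sites, count lists that give the listed inclusion levels, and a mean of at least 10 junction reads over the 6 libraries. Of 5692 A3SS events among 78336 events of 5 types, 4391 had intact lists and enough reads, and 1792 of these had sites 4 to 50 nt apart. These 1792 events came from 1363 genes, and all of them entered the tests. They covered 1708 pairs of sites, because 163 events shared their pair with another event that differed in the upstream exon or the exon end. Another 640 tested events had sites 3 nt apart, 1935 had sites over 50 nt apart, and 24 had sites under 3 nt apart. The relative use of the sites played no part in the choice.

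NCI-H1975 is an established human lung adenocarcinoma cell line. The cells were transiently transfected with the PCDNA3.1-SAM68 plasmid (SAM68 group) or the PCDNA3.1 plasmid alone (control group) at 2 µg per well, and RNA was taken after 48 h from 3 biological replicates of each group. SAM68, encoded by KHDRBS1, is an RNA-binding protein of the STAR family that takes part in splice site choice. The design asks whether more SAM68 changes which splice sites the cells use.

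At a 3ʹ splice site, SF1 binds the branch point, U2AF2 binds the polypyrimidine tract and U2AF1 contacts the AG at the end of the intron. After the first catalytic step the spliceosome joins the upstream exon to an AG downstream of the branch point, and AGs close to each other can compete. Use of the upstream AG adds the segment between the sites to the exon. In coding sequence a segment whose length is a multiple of 3 keeps the reading frame, whereas other lengths shift it and can lead the mRNA to nonsense-mediated decay.

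The sequences below show how such pairs look in hg38, from 25 nt before the upstream site to 6 nt after the downstream site, read in the direction of the gene. The last 2 intron bases of both sites are in capitals, so that the segment between the pairs of capitals, with the second pair, is the alternative part of the exon. They were chosen to show pairs with a control PSI of 10% to 90% (SERBP1, CHD4, PRKCSH, TCF25 and USP19), pairs whose upstream intron end is TG instead of AG (SRRT, PTPN11 and TNPO1) and pairs with the larger differences between the groups (PHF10, RBM26, RALGDS and ISOC2).
SERBP1: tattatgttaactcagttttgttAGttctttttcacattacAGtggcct
CHD4: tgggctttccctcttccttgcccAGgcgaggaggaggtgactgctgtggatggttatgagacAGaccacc
PRKCSH: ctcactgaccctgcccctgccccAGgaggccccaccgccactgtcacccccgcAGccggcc
TCF25: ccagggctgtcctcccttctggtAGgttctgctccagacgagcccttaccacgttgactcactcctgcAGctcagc
USP19: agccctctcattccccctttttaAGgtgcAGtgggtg
SRRT: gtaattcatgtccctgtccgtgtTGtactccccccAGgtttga
PTPN11: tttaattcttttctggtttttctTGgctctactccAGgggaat
TNPO1: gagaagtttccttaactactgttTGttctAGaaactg
PHF10: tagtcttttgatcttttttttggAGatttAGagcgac
RBM26: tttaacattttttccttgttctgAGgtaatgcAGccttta
RALGDS: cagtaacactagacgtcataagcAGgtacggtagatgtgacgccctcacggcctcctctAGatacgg
ISOC2: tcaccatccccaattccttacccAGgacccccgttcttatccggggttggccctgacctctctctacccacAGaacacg

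In hg38 these windows lie at chr1:67424954-67425002 (SERBP1, minus strand), chr12:6600351-6600420 (CHD4, minus), chr19:11447668-11447728 (PRKCSH, plus), chr16:89895013-89895088 (TCF25, plus) and chr3:49115933-49115969 (USP19, minus). The windows with an upstream TG lie at chr7:100888017-100888059 (SRRT, plus), chr12:112486438-112486480 (PTPN11, plus) and chr5:72851213-72851249 (TNPO1, plus). The last set lies at chr6:169717895-169717931 (PHF10, minus), chr13:79354556-79354595 (RBM26, minus), chr9:133109680-133109746 (RALGDS, minus) and chr19:55455325-55455403 (ISOC2, minus). All 12 windows span an intron end inside coding sequence in GENCODE 44, so each segment is coding exon when the upstream site is used and intron when the downstream site is used.

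The percent spliced in (PSI) of an A3SS event is the use of the upstream site, from the junction reads of both forms divided by their effective lengths. The 1792 events held 244133 to 287891 junction reads per library, and the mean reads per event and library ran from 10 to 1603 with a median of 83.8. Lists damaged before deposit took out 275 A3SS events, 105 of them with sites 4 to 50 nt apart, and the highest single count left was 973, so the most deeply read events are not described. The junction reads of KHDRBS1 were 312, 329 and 317 rpm (reads per 1000000 junction reads) in control and 1233, 1262 and 1279 rpm in SAM68. The groups did not overlap, and the log2 fold change was 1.98 ± 0.05 (SE; limma, adjusted p = 7.02e-22), with reads of the plasmid and of the cell's own gene not told apart. Of 10145 genes tested, 5 (0.0493%) passed an adjusted p under 0.05 together with a log2 fold change beyond ±1. Of 14 cell type markers, 4 had junction reads in the tables, with the epithelial keratins KRT18 at 483 and 526 rpm, KRT8 at 337 and 238 rpm and KRT7 at 3.68 and 1.77 rpm (mean of control and SAM68). The KRT8 control mean rests on 1 library, with 521, 254 and 237 rpm. NAPSA, a marker of lung adenocarcinoma, was near 0 in both groups, and the tables listed none of the leukocyte, fibroblast and endothelial markers, which have no listed event.

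The site that carried most reads depended on the distance. The upstream site was the major site (control PSI over 50%) in 275 of 302 events 4 to 6 nt apart (91.1%) and in 117 of 166 events 7 to 12 nt apart (70.5%). It was the major site in 195 of 543 events 13 to 24 nt apart (35.9%) and in 434 of 781 events 25 to 50 nt apart (55.6%). Over all 1792 events the share was 57.0%, beside 64.8% of the 640 events 3 nt apart and 63.4% of the 1935 events over 50 nt apart. These shares are descriptions without a test, since the events share libraries and genes.

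The median control PSI followed the same order. It was 97.5% at 4 to 6 nt, 95.9% at 7 to 12 nt, 10% at 13 to 24 nt and 81.3% at 25 to 50 nt. With a mean of at least 50 reads the median at 13 to 24 nt was 4.84%, while the share of its events with the upstream site major was 37.0%. The shares hardly moved from library to library. The upstream site was major in 89.7% to 91.4% of events 4 to 6 nt apart and in 35.5% to 36.5% of events 13 to 24 nt apart over the 6 libraries, SAM68 libraries included.

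The distances themselves were uneven. The most frequent distance was 4 nt with 143 events, followed by 5 nt with 97, 21 nt with 80 and 18 nt with 74. From 9 nt to 48 nt each multiple of 3 held more events than either of its neighbours, whereas 6 nt, with 62 events, held fewer than 5 nt. At the edges of the selection, the 640 events 3 nt apart had a median control PSI of 65.3% and the 143 events 4 nt apart one of 98.2%. The 21 events 50 nt apart and the 43 events 51 nt apart had medians of 95.8% and 62.4%. Events with a mean of 10 to under 11 reads (19) and of 9 to under 10 reads (24, left out) had medians of 45.9% and 33.3%.

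In most events 1 site took nearly all reads. The control PSI was under 5% in 490 events (27.3%) and over 95% in 662 (36.9%), and it lay between 10% and 90%, here called both sites used, in 436 (24.3%). The share with both sites used was 22.2% at 4 to 6 nt, 25.9% at 7 to 12 nt, 25.2% at 13 to 24 nt and 24.2% at 25 to 50 nt. It was 66.9% among the events 3 nt apart and 22.9% among those over 50 nt apart, so the step lay between 3 and 4 nt.

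Each site was scored against 236930 annotated 3ʹ splice sites of protein-coding genes. The score is the sum of log2 odds of the bases at 20 intron and 3 exon positions, without the AG itself, and a higher score means bases more often found at 3ʹ splice sites, mostly pyrimidines. The median scores of the upstream and the downstream site were 4.04 and 0.99 at 4 to 6 nt, 1.48 and 1.55 at 7 to 12 nt, 0.99 and 3.38 at 13 to 24 nt, and 3.22 and 2.27 at 25 to 50 nt. At 4 to 6 nt the upstream site thus had the better sequence, and at 13 to 24 nt the downstream site had it, as it also had most reads. In the window of the downstream site the upstream AG itself takes up part of the tract when the sites are close.

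The site with the higher score was the major site in 1284 of the 1763 events with AG at both sites (72.8%), beside 67.1% of 630 events 3 nt apart and 59.1% of 1929 events over 50 nt apart. Within the 4 to 50 nt range it was 65.6% at 7 to 12 nt, the lowest of the 4 classes, and 84.7% at 4 to 6 nt, the highest. The score difference, upstream minus downstream, and the control PSI had a Spearman correlation of 0.52 and a Pearson correlation of 0.53 over these 1763 events, which share libraries and, in part, genes. Where the downstream site scored higher by over 4, the upstream site was major in 19.7% of 356 events, and where the upstream site scored higher by over 4, in 88.8% of 419 events. With a difference between -4 and 0, the upstream site was major in 75.7% of 37 events 4 to 6 nt apart, in 71.4% of 42 events 7 to 12 nt apart, in 26.9% of 156 events 13 to 24 nt apart and in 46.2% of 208 events 25 to 50 nt apart. In the outer bins the 13 to 24 nt and 25 to 50 nt classes were close, at 15.9% and 15.7% below -4 and at 85.5% and 82.4% above 4. The mix of scores within a bin was not matched between the classes.

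**Figure D1:**
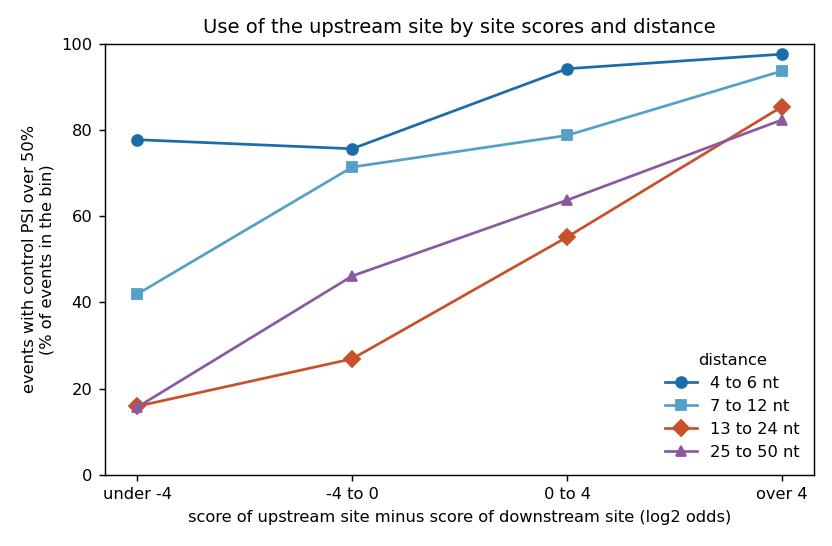
Percentage of events with a control PSI over 50% (y axis) against the score of the upstream site minus that of the downstream site in 4 bins (x axis, log2 odds), with 1 line per distance class. All 4 lines are higher in the last bin than in the first, from 77.8% to 97.6% at 4 to 6 nt and from 15.9% to 85.5% at 13 to 24 nt; the first bin of the 4 to 6 nt class holds 9 events.

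Between the sites, 1157 events (64.6%) held no further AG, and 635 did. At 13 to 24 nt the upstream site was major in 33.3% of 469 events without an AG between the sites and in 52.7% of 74 events with one. At 25 to 50 nt the values were 53.5% of 256 and 56.6% of 525. The scores differed between these sets too, with median upstream scores of 0.90 and 2.21 at 13 to 24 nt, and the part of the scores in this difference was not tested.

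By the base before the AG, the levels were alike for AAG, CAG and TAG at the upstream site, which was major in 59.6%, 57.1% and 60.0% of events, and lower for GAG, where it was major in 16 of 47. CAG stood at both sites in 771 events (43.0%), with a median control PSI of 84.2%. GAG upstream of CAG was rare, with 30 events, and had a median of 4.97%, with the upstream site major in 7 of them, whereas GAG upstream of TAG (15 events) had a median of 50.2%. Where CAG was followed by TAG downstream (151 events) the median was 31.7%, and where TAG was followed by CAG (314 events) it was 82.8%. The upstream site was major in 45.7% and 58.9% of these events, a smaller contrast than that of the medians. Distances and scores were not matched between the sets. RBM26 was an exception to the low use of GAG upstream of CAG, as described below.

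An upstream site that did not end in AG was listed in 26 events, 10 of which ended in TG before a downstream AG, and 8 of these 10 TG sites were annotated exon starts. Both sites were used in 4 of the 10, which were named after their values were seen. In SRRT, which encodes a partner of the nuclear cap-binding complex, the TG site 12 nt upstream was the major site, which in control took 78.6%, 78.7% and 78.2% and in SAM68 took 78.5%, 68.2% and 81.7%. In PTPN11, the gene of the tyrosine phosphatase SHP2, the TG site 12 nt upstream was the minor site, with 14.1%, 11.5% and 19.1% in control and 20.3%, 17.6% and 23.6% in SAM68. The SRRT groups overlapped widely, and the PTPN11 groups overlapped in 1 control and 1 SAM68 library (adjusted p = 0.657 for PTPN11). TNPO1, a nuclear import receptor gene, used its TG site 6 nt upstream at 10.8% ± 0.28 in control and 10.8% ± 2.92 in SAM68 (SD, n = 3), and its segment ends in a TAG stop codon in the frame of the coding sequence. GOLGA7 used a TG site 5 nt upstream at 10.3% ± 2.07 and 13.6% ± 0.88 (SD, n = 3).

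Of the 1792 events, 1570 lay in coding sequence, and 670 of these had a distance that was a multiple of 3. Both sites were used in 202 of the 670 (30.1%) and in 140 of the 900 coding events with other distances (15.6%), or in 25.6% and 10.1% with a mean of at least 50 reads. In events at or outside the coding ends or in genes without a coding transcript, the values were 37.5% of 56 and 43.98% of 166. By single libraries these ran from 25% to 46.4% and from 39.8% to 46.7%, with the in-frame share the higher in 2 of the 6 libraries. These events had fewer reads, with a median of 51 and 35.8 against 88.8 and 97.0 in the coding events, and the part of depth was not tested.

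In coding events the share with both sites used was higher at multiples of 3 in each class, with 25.8% against 15.5% at 4 to 6 nt, 33.3% against 15.9% at 7 to 12 nt, 32.9% against 13.5% at 13 to 24 nt and 27.8% against 16.8% at 25 to 50 nt. The same order held in each of the 6 libraries, over all classes, from 27.8% to 30.9% in frame and from 14.9% to 16.4% with a shifted frame. Fewer reads of a frame-shifting form can come from rare use of its site or from loss of the mRNA, and junction reads do not tell these apart.

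For 546 of the 670 coding events with a distance that is a multiple of 3, the annotation gave a single reading frame across the segment. In 44 of these the segment held or made a stop codon, and the median control PSI was 1.69%, with the upstream site major in 4. In the other 502 the median was 63.5%, with the upstream site major in 269 (53.6%). The most deeply read events with such a stop, named after their values were seen, were EI24 (12 nt, PSI 1.22% ± 0.09 in control and 1.89% ± 1.37 in SAM68; SD, n = 3), LRPAP1 (36 nt, 0.16% ± 0.17 and 0.06% ± 0.10) and CORO1B (45 nt, 0.26% ± 0.12 and 0.00% ± 0.00). The median scores in the 44 events and in the 502 were 1.87 and 2.46 at the upstream site and 3.91 and 2.51 at the downstream site, and their part in the levels was not tested.

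The most deeply read events with both sites used were taken up to 3 per distance class. SERBP1, which encodes an mRNA-binding protein of the ribosome, was read most. Its sites 18 nt apart were used almost equally, with a PSI of 45.6%, 47.4% and 47.7% in control and 49.9%, 49.7% and 48.5% in SAM68. All 3 SAM68 libraries lay above the control libraries, by 2.46 points on average (adjusted p = 0.657, exact permutation p = 0.1, the smallest that 3 against 3 libraries can give).

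Among the sites 4 to 6 nt apart, SF1, the gene of the branch point protein itself, used its AAG site 5 nt upstream at 86.5%, 87.6% and 88.7% in control and 93.8%, 86.0% and 88.4% in SAM68, with overlapping groups. C17orf49 (4 nt) used the upstream site at 33.4% ± 3.41 and 30.8% ± 5.28 (SD, n = 3), the lesser share although that site scored 7.40 and the downstream site 2.60. Among those 7 to 12 nt apart, GPS1, a subunit of the COP9 signalosome, was at 18.9% ± 0.31 and 17.1% ± 2.51, and CSAG1, a cancer-testis gene with near-identical copies that make its reads uncertain, at 26.1% ± 5.21 and 26.3% ± 2.33. Neither group difference passed the test.

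Among the sites 13 to 24 nt apart, MORF4L2, a subunit of histone acetyltransferase complexes, was at 13.3% ± 1.18 and 13.3% ± 0.42, and NELFE, a subunit of the negative elongation factor, at 74.2% ± 1.11 and 76.3% ± 1.61 (SD, n = 3). Among those 25 to 50 nt apart, MTA1, a subunit of the NuRD complex, was at 87.0% ± 1.43 and 86.6% ± 1.81, and PRKCSH, the beta subunit of glucosidase II, at 87.8% ± 1.74 and 86.8% ± 2.24. The transcription factor gene TCF25 (45 nt) had a PSI of 90.3%, 84.9% and 89.1% in control and 93.7%, 91.1% and 92.1% in SAM68. Its groups did not overlap, and the difference of 4.22 points had an adjusted p of 0.657 (unadjusted p = 0.0192, by the quasi-binomial test with limma's moderation). Without the second control library it was 2.62 points.

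No event passed the test between SAM68 and control. At an adjusted p under 0.05 with a change of PSI of at least 10 points, the quasi-binomial test called 0 of the 1792 events and 0 of all 4391 A3SS events (0.0%), with a smallest adjusted p of 0.169. At an unadjusted p under 0.05 it counted 132 of the 1792 events (7.37%), beside 6.99% of all A3SS events. Limma on the logit of PSI and the test with unmoderated dispersions also called 0, with 89 (4.97%, beside 4.76% of all A3SS events) and 49 (2.73%, beside 2.76%) at an unadjusted p under 0.05. When the 3 libraries of a group were pooled for a likelihood ratio test, with no spread between libraries, 32 were called (1.79%), beside 2.07% of all A3SS events. With 1 dispersion shared by all A3SS events, chosen after seeing the data, 1 of the 1792 events was called (0.0558%; NPRL2, adjusted p = 0.03), beside 3 of all A3SS events (0.0683%).

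The PSI of the 3 SAM68 libraries and that of the 3 control libraries did not overlap in 133 events (7.42%), beside 7.11% of all A3SS events. SAM68 was higher in 68 of these (3.79%, beside 3.67% of all) and lower in 65 (3.63%, beside 3.44% of all). By distance the share was 7.62% at 4 to 6 nt, 6.02% at 7 to 12 nt, 6.45% at 13 to 24 nt and 8.32% at 25 to 50 nt. These shares are near those of all A3SS events. The median difference over the 1792 events was -0.08 points and the median absolute difference 1.39 points, and the major site was the same in both groups in 1765 events and differed in 27. Differences of at least 10 points were seen in 125 events (6.98%), beside 9.31% of all A3SS events, and in 16 of the 1186 events whose mean was 50 reads or more (1.35%).

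The 8 events with the largest differences, among those with a mean of at least 50 reads and groups that did not overlap, differed by 11.4 to 17.3 points, 6 of them toward the upstream site in SAM68. None passed the test, with adjusted p-values of 0.42 to 0.657, and for each the exact permutation p was 0.1, the smallest that 3 against 3 libraries can give. They had 36 to 125 reads per library, and the 95% Wilson interval of the share of upstream reads in 1 library was 5.13 to 29.8 points wide, for counting error alone.

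In PHF10, a subunit of the PBAF chromatin remodeler, the PSI of sites 6 nt apart was 69.9%, 77.9% and 84.1% in control and 90.9%, 90.8% and 100% in SAM68. Its SAM68 libraries were higher by 16.6 points, with an adjusted p of 0.42. DPF1, another BAF subunit gene (30 nt), had 11.9%, 19.6% and 14.1% in control and 23.5%, 25.1% and 31.0% in SAM68, a difference of 11.4 points. MEIS2, a homeobox transcription factor gene (21 nt), had 34.8%, 47.5% and 30.9% against 59.3%, 54.1% and 48.4%. The highest MEIS2 control library lay less than 1 point below the lowest SAM68 library.

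RCE1 encodes the protease that trims prenylated proteins such as RAS, and RALGDS an exchange factor for RAL downstream of RAS. The PSI of RCE1 (4 nt) was 70.7%, 64.0% and 79.2% in control and 80.0%, 94.7% and 85.8% in SAM68. The PSI of RALGDS (36 nt) was 53.3%, 40.2% and 56.4% in control and 69.9%, 60.0% and 63.8% in SAM68. In both genes the SAM68 libraries were higher, by 15.5 and 14.6 points, with the highest control library within 4 points of the lowest SAM68 library. Without the second control library the RALGDS difference was 9.69 points. Among these 8 events ISOC2 (48 nt) had the largest difference, with 18.1%, 19.7% and 9.06% against 42.4%, 25.4% and 30.9%, or 17.3 points.

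RBM26 and PANK4 differed in the other direction. RBM26, an RNA-binding protein gene, used its GAG site 9 nt upstream of a CAG at 73.9%, 77.2% and 72.5% in control and at 54.1%, 60.1% and 69.1% in SAM68, a difference of -13.4 points. PANK4, of the pantothenate kinase family (34 nt), had 98.5%, 94.3% and 98.3% in control and 91.4%, 77.3% and 86.0% in SAM68, a difference of -12.1 points with an adjusted p of 0.561. In both, all SAM68 libraries were lower than all control libraries.

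Larger differences were found at lower depth in NPRL2, a subunit of the GATOR1 complex that restrains mTORC1, and in ARMC6, an armadillo repeat gene. Both genes were named because earlier results of these data or the study list them. The NPRL2 sites 5 nt apart had a PSI of 83.6%, 70.4% and 83.8% in control and 100% in each SAM68 library, from 19 to 52 reads per library. The downstream site had 22 reads in control and 0 of 126 reads in SAM68, so that its share may be as high as 2.38%. This difference of 20.7 points had an adjusted p of 0.169 in the quasi-binomial test and of 0.357 with limma on the logit of PSI. A second NPRL2 event, with sites 4 nt apart at another exon, had 98.6% ± 1.21 and 92.5% ± 5.84 (SD, n = 3), with overlapping groups.

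ARMC6 (5 nt) differed in the other direction, with 100% in each control library and 88.4%, 66.0% and 90.05% in the SAM68 libraries. Its groups did not overlap, the difference was -18.5 points, and the adjusted p was 0.328. Without the second SAM68 library the difference was -10.8 points. In RTBDN, a riboflavin-binding protein gene, the sites 18 nt apart had a PSI of 84.9% ± 9.16 and 88.1% ± 12.2, and those 12 nt apart 98.4% ± 2.84 and 98.0% ± 3.37 (SD, n = 3). Both RTBDN differences were smaller than the spread, and their direction turned when single libraries were left out.

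Small differences at high depth gave p-values as low as those of large ones. LARP1, which encodes a regulator of mRNAs for the translation machinery, was named after its value was seen. Its site 27 nt upstream took all 1833 reads in control and 98.1%, 97.5% and 99.2% in the SAM68 libraries, a difference of -1.74 points with an adjusted p of 0.169. PTBP1 and GPR89A were also named after their values were seen. PTBP1 (20 nt), which encodes the splicing repressor PTB, had 100% in each control library and 98.6%, 93.3% and 97.2% in SAM68, with an adjusted p of 0.42. GPR89A (20 nt) had a difference of -32.8 points, but from 60.4%, 35.1% and 7.67% in control, with as few as 11 reads in a library and a near-identical copy of the gene that makes its reads uncertain. Without the first control library it was -19.8 points.

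Lists of genes by function were read for the same events, each with 0 called. Their counts stand beside 6.99% of all A3SS events with an unadjusted p under 0.05 and 24.3% of the 1792 events with both sites used. Among 103 genes of splicing and RNA processing, 26 held 33 events, of which 8 had both sites used and 3 had an unadjusted p under 0.05, with a median difference of -0.31 points, beside -0.05 over all A3SS events tested. RBM39 (18 nt), which binds splicing factors, had 64.5%, 59.8% and 65.0% in control and 58.1%, 53.9% and 57.9% in SAM68, with no overlap and a difference of -6.49 points (adjusted p = 0.657). ACIN1 (36 nt) was at 84.3% ± 2.91 and 81.5% ± 1.59, and QKI (24 nt), another STAR protein gene, at 91.2% ± 0.49 and 93.1% ± 1.69 (SD, n = 3).

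Among 70 chromatin and transcription genes, 18 held 25 events, 2 with an unadjusted p under 0.05. CHD4, the ATPase of NuRD (39 nt), had 60.5%, 63.5% and 67.7% in control and 62.4%, 63.5% and 68.0% in SAM68, with fully overlapping groups. NCOR1 (48 nt) was at 84.9% ± 3.89 and 87.7% ± 3.28, MBD1 (45 nt) at 83.4% ± 4.80 and 81.5% ± 5.31, and EHMT1 (21 nt) at 58.6% ± 4.24 and 55.1% ± 8.59 (SD, n = 3).

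Among 70 genes of growth signalling and lung adenocarcinoma, 13 held 16 events, 0 with an unadjusted p under 0.05 in the quasi-binomial test. The JNK genes MAPK9 and MAPK8 have the same kind of pair, 5 nt apart with TAG upstream and CAG downstream, but MAPK9 used the upstream site at 16.8% ± 4.21 and 14.3% ± 2.78, and MAPK8 at 68.3% ± 14.7 and 82.2% ± 8.49 (SD, n = 3). STAT3 (50 nt) was at 89.8% ± 5.45 and 95.5% ± 6.81, and CASP8 (26 nt) at 84.4% ± 10.99 and 96.0% ± 3.92. All 4 had overlapping groups.

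Among 84 genes of the ubiquitin system, proteasome and cell cycle, 17 held 22 events. ANAPC5 (39 nt) was at 72.8% ± 6.13 and 73.0% ± 0.83, USP19 (6 nt) at 68.9% ± 1.77 and 72.9% ± 3.51, CDC27 (18 nt) at 17.4% ± 4.08 and 21.1% ± 3.94, and ITCH (21 nt) at 12.3% ± 3.29 and 15.4% ± 3.98 (SD, n = 3). Among 75 cytoskeleton and adhesion genes, 8 held 12 events, 1 with an unadjusted p under 0.05. MYL6, a myosin light chain gene (50 nt), was at 89.3% ± 2.33 and 92.6% ± 1.95, with groups that did not overlap and a difference of 3.28 points (adjusted p = 0.668), or 1.94 points without the third control library. ARPC1B (20 nt) was at 50.95% ± 8.80 and 56.2% ± 4.22 (SD, n = 3). A second CORO1B event, with the same sites and another upstream exon, had 14.2%, 6.36% and 13% in control and 0% in each SAM68 library, from 6 to 24 reads per library (adjusted p = 0.657). Its downstream site took all 31 reads in SAM68, which leaves room for an upstream share of 9.68%.

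DNA repair and replication genes (13 of 68, 19 events) and genes of mitochondria and metabolism (11 of 81, 15 events) had both sites used in 2 events and 1 event. MUTYH (33 nt) was at 6.87% ± 6.26 and 2.03% ± 3.51, RAD52 (49 nt) at 8.45% ± 8.49 and 7.38% ± 3.53, and POLM (13 nt) at 69.7% ± 9.03 and 78.1% ± 24.1 (SD, n = 3). PMS2 (49 nt), at 93.7% ± 1.71 and 97.4% ± 4.49, and SDHA (35 nt), at 8.21% ± 11.2 and 2.90% ± 2.87, have pseudogenes that make their reads uncertain. NDUFAF5 (20 nt) was at 18.2% ± 4.86 and 16.9% ± 9.66. None of these passed the test.

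The proteins that pick the 3ʹ splice site were read by the junction reads of their genes. Of 30 such genes 27 were tested, and none passed in the limma test of all genes. At an unadjusted p under 0.05 there was 1, PRPF18 (log2 fold change -0.48 ± 0.23, SE; adjusted p = 0.39). The log2 fold change was within 0.25 of 0 in 25 of the 27, with a median of -0.028, beside -0.035 over all genes. SF1 was at 0.02 ± 0.07, U2AF2 at 0.08 ± 0.07, SF3B1 at -0.13 ± 0.08 and PUF60 at 0.11 ± 0.07 (log2 fold change ± SE). U2AF1 was at -1.63 ± 1.23, from a single event at 87.4, 20.3 and 1.51 rpm in control and 208, 0.37 and 0.18 rpm in SAM68. The sign is that of the mean of log2 values, whereas the mean rpm was 36.4 in control and 69.6 in SAM68. U2AF1 also has a near-identical copy that makes its reads uncertain. Its event is one of mutually exclusive exons, whose count lists were not checked against the listed inclusion levels as the A3SS lists were. Without the first SAM68 library U2AF1 was at -4.32 with an adjusted p of 0.0159, and without any other library it was not called. Of the list, 3 genes held 6 of the 1792 events, among them SF1 and CHERP (33 nt, 8.51% ± 4.28 and 8.78% ± 2.62; SD, n = 3).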

How the data were processed

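The reads were filtered with fastp 0.20.0, aligned to GRCh38 with HISAT2 2.1.0 and passed to rMATS by the authors. The tool versions are from the submitters' processing notes, and the version of rMATS is not given in the sources used here. The authors deposited, for each event, raw junction read counts of both forms and inclusion levels (fractions) as lists of 3 values per group without replicate numbers, with effective lengths. The first list was taken as control, as the study's comparison name and its PKM panel give it, and libraries are named by list position. The deposited p-values, FDR and level differences were not used. PSI was recomputed from the counts, which gave the listed levels within 0.001.

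A quasi-binomial model of the counts, with group as its term, was fitted to 4391 A3SS events. The dispersion was moderated with limma 3.58.1 (squeezeVar; R 4.3.3) (prior 1.815 with 19.2 degrees of freedom, not below 1), tested with an F test and adjusted by Benjamini-Hochberg over all 4391. Single events also had exact two-sided permutation tests. Genes were tested with limma on log2(rpm + 0.5) of their most-read event. For these gene reads, the lists of event types other than A3SS were not checked against the listed levels. A count model per gene had been planned and was not run, and limma took its place. Both tests were run on simulated counts with known changes to check the code, which does not measure their error rates in these data. Sequences and annotation are from hg38 and GENCODE 44. The site weights include the sites described. Intervals and limits cover counting error only.

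The libraries differed from each other by more than sampling noise in the junction reads per event, with the reads of both forms added. The chi-square per degree of freedom was 2.46 to 2.78 for the 6 pairs within groups and 2.75 to 3.39 for the 9 pairs between groups. This chi-square is of read totals and does not measure the spread of PSI. The correlation of logit PSI over 1037 events was 0.964 to 0.970 for all pairs. The events and gene lists were chosen with earlier results of these data known. Named are called events, the 8 largest non-overlapping differences at a mean of at least 50 reads, the 3 most-read events with both sites used per class, up to 4 per gene list with a control PSI of 5% to 95%, and RTBDN, NPRL2 and ARMC6. RTBDN, NPRL2 and ARMC6 were named because earlier results of these data or the study list them. The text marks names outside these rules as picked with their values in view. Of the named events, 1 is not reported here.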

Additional observations from a re-analysis of the deposited data

How the results depend on the processing

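No paired analysis was possible because the count lists carry no replicate numbers. The count of called events was 0 in 14 of 16 alternatives, among them limma on the logit of PSI, unmoderated dispersions, minimums of 20 and 50 reads, and each library left out in turn (0 to 0). It was 32 when libraries were pooled for a likelihood ratio test, which by construction leaves out the spread between libraries, and 1 with 1 shared dispersion. The share of events in which the upstream site carried most reads was 57.0%, and it was 57.5% with a minimum of 20 reads, 57.8% with 50 reads, 57.7% without division by length, 55.7% with 1 event per pair of sites, and 56.9% to 57.3% without single control libraries. By distance the shares kept their order under each alternative. The difference of RTBDN was 3.20 points at 18 nt and turned to -0.30 without the second control library and -2.73 without the first SAM68 library (range over single libraries left out, -2.73 to 9.48). At 12 nt it was -0.31 points and turned to 0.51 without the second or the third control library and to 1.64 without the third SAM68 library (range -1.94 to 1.64). Of the genes of 3ʹ splice site recognition 0 were called, or 0 to 1 with single libraries left out (U2AF1 without the first SAM68 library). Count models of edgeR and DESeq2 were not run. The shared dispersion, limma-voom, the median ratio size factors and the check of the frame shares were chosen after seeing the data. Depth limits single events, since at the lowest depth named above a library held 6 reads.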

Other observations

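SAM68 binds A- and U-rich RNA motifs such as UAAA and UUAA. In the hg38 sequence from 100 nt before the upstream site to the site and from the downstream site to 100 nt after it, on the strand of the gene, TAAA was found in 750 of the 1792 events (41.9%) and in 41.5% of all A3SS events tested. TTAA was found in 42.4% and 41.8%. Among the 133 events whose groups did not overlap, TAAA was found in 49.6% and TTAA in 47.4%, and among the other 1659 in 41.2% and 41.9%. The 133 were 7.42% of the events, beside 7.11% of all A3SS events, and none of them passed the test between the groups. These are descriptions without a test, and a match of letters is not a binding site.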
